A study of Homo sapiens with 6 samples.

Results

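Gene expression was compared between cells overexpressing the 22.5 kDa and the 18 kDa isoform of FGF2, fibroblast growth factor 2. The 4 libraries compared, 2 with each isoform, are 4 of the 6 libraries of the study. They were chosen by their labelled genotype alone, and 13124 of the 23459 genes in the count table had enough reads to be tested. All 6 libraries come from T47D-YA, a human breast cancer cell line, and the 2 empty vector libraries serve here as a reference level and help to estimate the spread between replicates. The study's title places nuclear FGF2 and Wnt signalling in breast cancer that resists antiprogestins, so the question addressed here is which transcripts tell the isoforms apart. The labels do not say whether a line is a pool or a single clone, nor whether replicates came from separate cultures, so the p-values speak only of the variation among these 6 samples, part of which may be technical. A difference between isoforms and a difference between the lines that carry them cannot be told apart.

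FGF2 is translated from 1 messenger RNA that has several start codons. The AUG start gives the small isoform, which is exported without a signal peptide and activates FGF receptors together with heparan sulfate at the cell surface. Upstream CUG starts give larger isoforms with an amino-terminal extension, and these are found mainly in the nucleus. In mammary epithelium FGF signalling acts beside estrogen, progesterone and Wnt signals on growth and branching.

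Total gene counts were between 5317687 and 6817324 per library. The 7 luminal epithelial markers were all detected, and their summed level was 12276 to 15175 CPM (counts scaled to a common library size, corrected for composition) with 22.5 kDa and 19154 to 22738 CPM with 18 kDa FGF2, with 0 of 7 passing edgeR's or DESeq2's test and 2 at an unadjusted p under 0.05. Summed markers of fibroblasts reached at most 80.6 CPM in any library, those of adipocytes 41.3 CPM, those of leukocytes 15.5 CPM and those of endothelium 5.90 CPM, and none of these genes passed edgeR's or DESeq2's test (5 at an unadjusted p under 0.05). The isoform libraries stood close to each other. Over the tested genes the median absolute log2 difference was 0.32 between the 18 kDa replicates and 0.35 between the 22.5 kDa replicates, against 0.28 to 0.48 for the 4 pairs of 1 library from each isoform. The first principal component, with 48.6% of the variance, set the empty vector libraries apart from the other 4. On the second, with 25.5%, the 18 kDa scores were 48.0 and 2.65 and those of 22.5 kDa FGF2 were -42.7 and -8.29, so the replicates numbered 1 were farther apart than those numbered 2.

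Against that spread, 207 of 13124 genes (1.58%) differed between the isoforms in edgeR's quasi-likelihood test at a Benjamini-Hochberg adjusted p under 0.05. Of these, 148 (1.13%) were higher with 22.5 kDa FGF2 and 59 (0.45%) were lower, and 128 and 51 of them differed by more than 2-fold. In all 207 the isoform groups did not overlap, which was also so for 2501 tested genes (19.1%) with the 22.5 kDa libraries above and 2500 (19%) with them below. The count rested on single libraries. It was 66 without 22.5 kDa replicate 1, 37 without 22.5 kDa replicate 2, 135 without 18 kDa replicate 1 and 733 without 18 kDa replicate 2. The genes that passed without any 1 of the 6 libraries numbered 30, with 20 higher and 10 lower, and these are described first. Genes of this set that the naming rule did not take, such as WT1, SATB1, CYBRD1, DEGS2 and DHRS2, were chosen after their values were seen, as were IDH1, TMSB4X and the neighbouring pairs named further on.

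ZDHHC4, an enzyme that attaches palmitate to proteins, had 0 counts in both 18 kDa libraries and 164 and 175 counts in the 22.5 kDa libraries, at 25 and 35.1 CPM. The empty vector libraries held 35 and 38.6 CPM, so it was in the 18 kDa libraries that no read was found. With the floor of 3 counts per library in place of 0, ZDHHC4 was at least 60.9-fold higher with 22.5 kDa FGF2 (edgeR adjusted p = 2.41e-09). HCFC2, a paralog of the host cell factor that binds transcription factors and histone-modifying enzymes, stood at 2.00 and 2.99 CPM with 18 kDa and at 91.0 and 52.7 CPM with 22.5 kDa FGF2. Here the empty vector libraries, at 3.04 and 3.19 CPM, lay beside the 18 kDa libraries, and the 22.5 kDa libraries alone were high. The log2 fold change of HCFC2 was 4.85 ± 0.38 (SE, n = 2 and 2; edgeR adjusted p = 7.98e-09).

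The promoter of HCFC2 is shown because its neighbour on the other strand rose with it. GLT8D2, a glycosyltransferase-like gene, is transcribed away from HCFC2, and in GENCODE 29 their starts are 274 bases apart. The window holds the 250 bases before the RefSeq start of HCFC2 on the plus strand, chr12:104064281-104064530 in GRCh38.p14, and capitals mark the dinucleotide CG.
HCFC2: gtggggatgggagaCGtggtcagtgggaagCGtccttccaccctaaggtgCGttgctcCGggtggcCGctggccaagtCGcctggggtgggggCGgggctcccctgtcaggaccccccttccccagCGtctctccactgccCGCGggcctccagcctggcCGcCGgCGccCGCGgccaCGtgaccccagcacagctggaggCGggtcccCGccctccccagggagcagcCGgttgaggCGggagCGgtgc
The window holds 21 CG dinucleotides, and 30.2% of the 35116 promoter windows of the same length in the RefSeq table hold at least as many. GLT8D2 itself was low, at 0 and 0.176 CPM with 18 kDa, 4.43 and 3.61 CPM with 22.5 kDa FGF2 and 0.358 and 0.563 CPM with the empty vector. The log2 fold change of GLT8D2 was 5.29 ± 0.83 (SE; edgeR adjusted p = 0.000419), and removal of 22.5 kDa replicate 1 or 2 ended the call (adjusted p = 0.0645 and 0.0564). It was chosen after its values were seen. GLT8D2 reached the filter on low counts only through the 22.5 kDa libraries, so its adjusted p is no support.

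TMTC1, an endoplasmic reticulum protein that takes part in the O-mannosylation of cadherins, was 37.8 and 31.3 CPM with 18 kDa and 486 and 379 CPM with 22.5 kDa FGF2. The empty vector libraries held 63.7 and 62.3 CPM, between the isoforms and nearer to 18 kDa. Its log2 fold change was 3.65 ± 0.24 (SE; edgeR adjusted p = 4.86e-10). ASS1, argininosuccinate synthase, which makes the precursor of arginine, was 132 and 109 CPM with 18 kDa, 907 and 1050 CPM with 22.5 kDa FGF2 and 245 and 312 CPM with the empty vector. The 22.5 kDa libraries were the high ones again, with a log2 fold change of 3.02 ± 0.24 (SE; edgeR adjusted p = 1.3e-08). CREB3L1, a membrane-bound transcription factor released from the endoplasmic reticulum, had 1 and 2 counts with 18 kDa and 69 and 98 counts with 22.5 kDa FGF2, a ratio of 58.9 (95% interval 19.8 to 289, counting error only; edgeR adjusted p = 1.9e-06). CREB3L1 was 0.153 and 0.351 CPM with 18 kDa and 10.5 and 19.6 CPM with 22.5 kDa FGF2. The empty vector libraries lay between, at 2.68 and 1.88 CPM.

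In a further set the 18 kDa libraries were low and the 22.5 kDa libraries lay near the empty vector. LFNG, a fringe enzyme that adds sugars to Notch receptors, was 3.53 and 4.39 CPM with 18 kDa, 30.4 and 47.9 CPM with 22.5 kDa FGF2 and 49.3 and 76.0 CPM with the empty vector. DTX4, a Deltex ubiquitin ligase of the Notch pathway, was 7.67 and 5.97, 53.3 and 43.1, and 59.5 and 71.7 CPM in the same order. CD74, the invariant chain that escorts MHC class II molecules, was 2.76 and 4.92, 31.0 and 35.5, and 58.6 and 89.1 CPM. All 3 genes had both 18 kDa libraries far below the other 4, with log2 fold changes of 3.30 ± 0.34 for LFNG, 2.81 ± 0.28 for DTX4 and 3.12 ± 0.33 for CD74 (SE; edgeR adjusted p = 1.18e-06, 6.2e-07 and 1.33e-06).

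FAM20C, a Golgi kinase of secreted proteins, was 2.30 and 1.93 CPM with 18 kDa, 19.1 and 19.8 CPM with 22.5 kDa FGF2 and 23.4 and 26.5 CPM with the empty vector. ZNF853, a zinc finger gene, was 0.921 and 0.351 CPM with 18 kDa against 15.3 and 21.6 CPM with 22.5 kDa FGF2, and its log2 fold change of 4.78 became 5.62 without 18 kDa replicate 1. GPNMB, a glycoprotein of melanosomes and lysosomes, was 0.614 and 0.176 CPM with 18 kDa against 10.8 and 7.42 CPM with 22.5 kDa FGF2, and its log2 fold change of 4.42 became 5.54 without 18 kDa replicate 1 and 3.80 without 18 kDa replicate 2. In the empty vector libraries GPNMB, at 2.68 and 2.44 CPM, lay between the isoforms, and ZNF853 stood at 10.9 and 15.8 CPM. The isoform groups did not overlap in any of the 3 genes. Over the 20 higher genes that passed without any 1 library, the empty vector level was nearer to the 22.5 kDa level in 12 and nearer to the 18 kDa level in 8, on log2(CPM + 0.5). Over all 148 higher genes it was nearer to 22.5 kDa in 69 (46.6%) and over the 59 lower genes in 25 (42.4%), beside 48.0% over all tested genes, and over the 10 lower genes that passed without any 1 library in 4.

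The remaining higher genes of this set were WT1, S100P, SLC25A18, SATB1, FAM220A, CYBRD1, DEGS2, CAPN2 and S100A16. WT1, a zinc finger transcription factor, was 4.91 and 3.86 CPM with 18 kDa and 37.4 and 25.9 CPM with 22.5 kDa FGF2. WT1-AS, which overlaps it on the opposite strand, had a log2 fold change of 2.00 (edgeR adjusted p = 0.0404; 0.173 to 0.349 without 18 kDa replicate 1, 22.5 kDa replicate 1 or 22.5 kDa replicate 2). Their starts are 112 bases apart in GENCODE 29. No source used here states how strand entered the counting, so reads in the stretch where WT1 and WT1-AS overlap cannot be told apart. SATB1, an organiser of chromatin, was 6.14 and 8.78 CPM with 18 kDa and 46.6 and 34.1 CPM with 22.5 kDa FGF2, with the empty vector at 26.6 and 29.1 CPM. CYBRD1, a ferric reductase of iron uptake, was 9.67 and 12.5 CPM with 18 kDa and 58.5 and 46.9 CPM with 22.5 kDa FGF2, with the empty vector at 9.48 and 7.69 CPM. SATB1 was therefore low with 18 kDa and CYBRD1 high with 22.5 kDa FGF2. DEGS2, which makes hydroxylated sphingolipids, rose from 80.1 and 90.8 to 290 and 433 CPM.

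**Figure D1:**
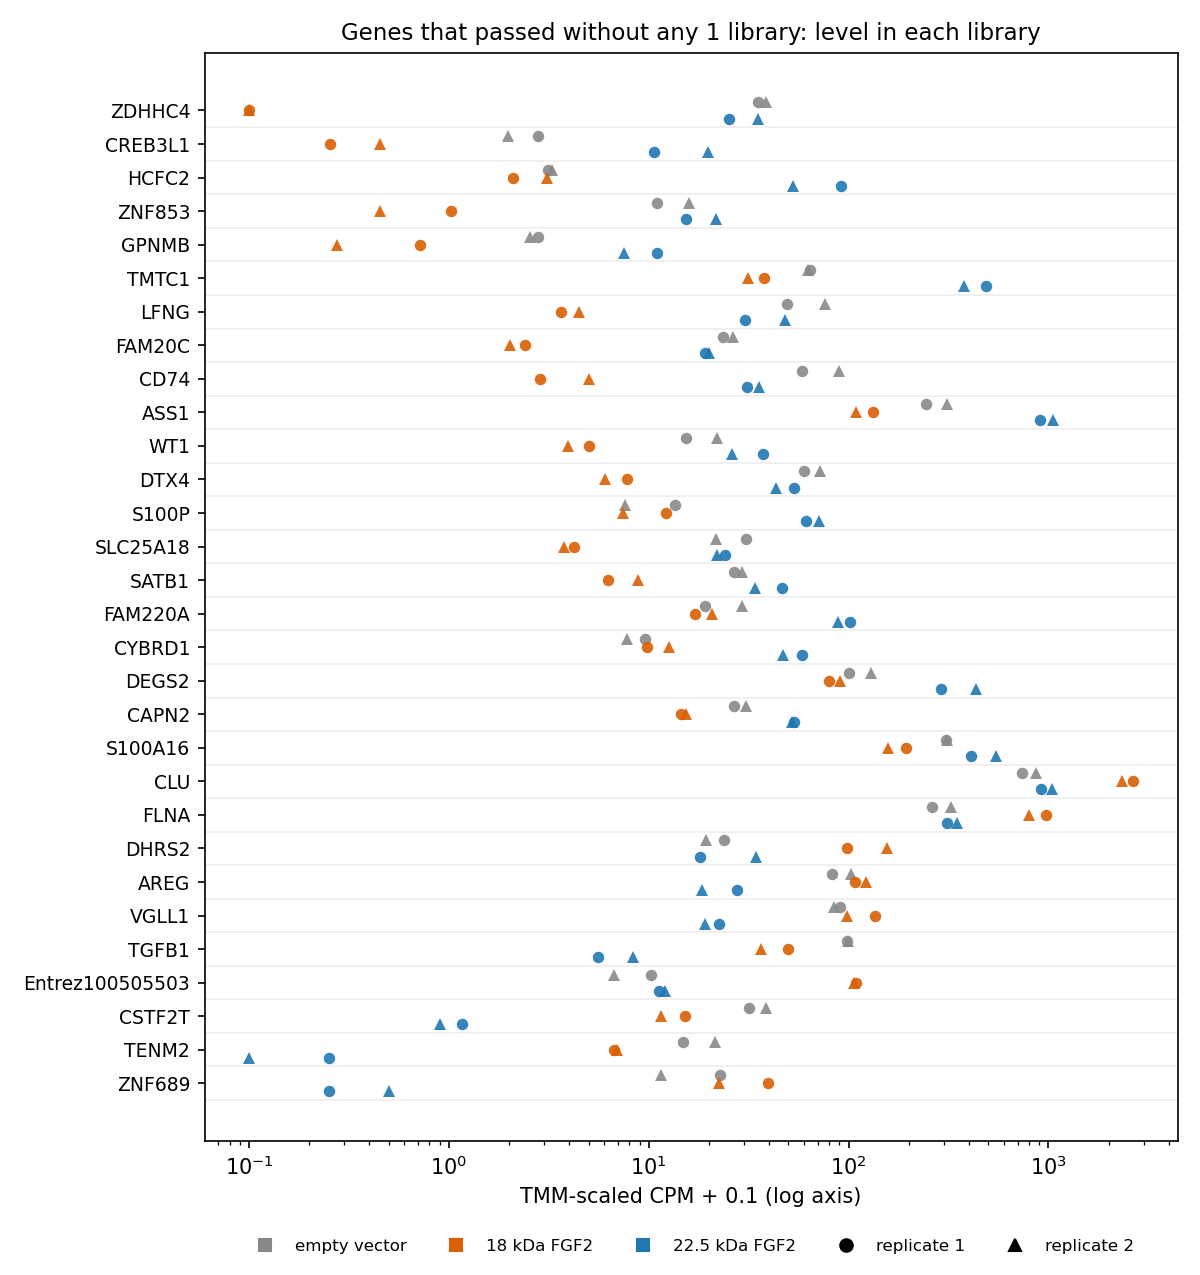
Level in each of the 6 libraries of the 30 genes that passed without any 1 library, as scaled CPM + 0.1 on a log axis, ordered by log2 fold change; grey is empty vector, orange 18 kDa and blue 22.5 kDa FGF2, circles are replicate 1 and triangles replicate 2. In each row the blue and orange points do not overlap, and the grey points lie near blue in some rows (LFNG, CLU) and near orange in others (HCFC2, AREG).

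ZNF689, a zinc finger gene, was 39.4 and 22.3 CPM with 18 kDa and 22.7 and 11.4 CPM with the empty vector, but had 1 and 2 counts with 22.5 kDa FGF2. TENM2, a teneurin of cell adhesion, had 43 and 39 counts with 18 kDa and 1 and 0 counts with 22.5 kDa FGF2. Its level was 6.60 and 6.85 CPM with 18 kDa and 14.7 and 21.4 CPM with the empty vector. ZNF689 was low in the 22.5 kDa libraries alone, while TENM2 was highest with the empty vector, lower with 18 kDa and lowest with 22.5 kDa FGF2. The counts differed between the isoforms by a ratio of 121 for ZNF689 (95% interval 41.1 to 589; edgeR adjusted p = 9.09e-07) and 77.5 for TENM2 (13.5 to 3098; edgeR adjusted p = 2.22e-05), intervals that cover counting error only. The fitted log2 fold change of TENM2 was -5.97, and -8.26 or -5.30 without 22.5 kDa replicate 1 or 2; that of ZNF689 was -6.77, and -7.50 without 22.5 kDa replicate 2. CSTF2T, a paralog of the polyadenylation factor CSTF2, was 31.5 and 38.5 CPM with the empty vector, 15 and 11.4 CPM with 18 kDa and 1.07 and 0.802 CPM with 22.5 kDa FGF2. Reads that CSTF2T shares with CSTF2 make its level uncertain.

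TGFB1, the ligand TGF-beta 1, followed the same order, at 98.5 and 99.4 CPM with the empty vector, 49.4 and 36.5 CPM with 18 kDa and 5.5 and 8.22 CPM with 22.5 kDa FGF2. Its log2 fold change between isoforms was -2.66 ± 0.28 (SE; edgeR adjusted p = 1.18e-06). AREG, amphiregulin, a ligand of the EGF receptor, was 107 and 122 CPM with 18 kDa and 27.5 and 18.4 CPM with 22.5 kDa FGF2, with the empty vector at 83.0 and 103 CPM. VGLL1, a cofactor of the TEAD transcription factors, was 136 and 98.2 CPM with 18 kDa and 22.3 and 19.0 CPM with 22.5 kDa FGF2, with the empty vector at 90.3 and 84.8 CPM. For both genes the 22.5 kDa libraries were the low ones, with log2 fold changes of -2.31 ± 0.24 for AREG and -2.50 ± 0.24 for VGLL1 (SE; edgeR adjusted p = 1.18e-06 and 3.37e-07).

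In the other 4 lower genes that passed without any 1 library, the 18 kDa libraries were the high ones. CLU, clusterin, a secreted chaperone, was 2655 and 2334 CPM with 18 kDa, 916 and 1037 CPM with 22.5 kDa FGF2 and 734 and 864 CPM with the empty vector. FLNA, filamin A, which crosslinks actin, was 969 and 794, 309 and 349, and 262 and 323 CPM in the same order. DHRS2, a short-chain dehydrogenase, was 98.5 and 156, 17.9 and 34.5, and 23.8 and 19.1 CPM. In these genes the 22.5 kDa libraries lay beside the empty vector libraries or overlapped them, and the log2 fold changes between isoforms were -1.35 for CLU, -1.42 for FLNA and -2.29 for DHRS2 (edgeR adjusted p = 0.00198, 0.000554 and 0.00156). The last gene carries no symbol in the RefSeq table and was 108 and 106 CPM with 18 kDa, 11.1 and 12 CPM with 22.5 kDa FGF2 and 10.2 and 6.57 CPM with the empty vector.

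FGF2 itself was 961 and 767 CPM with 18 kDa, 1333 and 1555 CPM with 22.5 kDa FGF2 and 2.15 and 2.44 CPM with the empty vector, which matches the labels of overexpression, and the 22.5 kDa libraries were the higher ones. Counts of the gene do not separate vector-encoded from native transcripts, nor 1 isoform from the other. The log2 difference of 0.74 ± 0.23 (SE) did not pass edgeR's test (adjusted p = 0.119) but passed the DESeq2 Wald test (adjusted p = 0.0325). Without both replicate 1 libraries, which leaves 1 library of each isoform, it was 1.02. The part of this level difference in the other results was not tested.

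Of 17 tested FGF ligands, receptors and co-receptors, 1 rose and 1 fell, with a median log2 fold change of 0.01 beside 0.02 over all tested genes. The counts of this list and of those that follow stand beside 1.13% higher and 0.45% lower over all tested genes. FGFR3, a receptor tyrosine kinase of the family, was 14.3 and 12.8 CPM with 18 kDa, 27.5 and 36.5 CPM with 22.5 kDa FGF2 and 32.0 and 32.1 CPM with the empty vector. The 18 kDa libraries were the low ones, and the log2 fold change was 1.23 ± 0.29 (SE; edgeR adjusted p = 0.0241). SDC1, syndecan 1, a heparan sulfate proteoglycan that presents FGF2 to its receptors, was 950 and 753 CPM with 18 kDa, 373 and 481 CPM with 22.5 kDa FGF2 and 313 and 265 CPM with the empty vector. Here the 18 kDa libraries were the high ones, and SDC1 fell by 1.00 on the log2 scale (edgeR adjusted p = 0.0214). Neither call held without 18 kDa replicate 1 (adjusted p = 0.0552 for FGFR3 and 0.204 for SDC1), 22.5 kDa replicate 1 (0.0904 and 0.259) or 22.5 kDa replicate 2 (0.221 and 0.0912).

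The other receptors did not pass. FGFR1 was 20.3 and 18.1 CPM with 18 kDa and 20.5 and 22.2 CPM with 22.5 kDa FGF2, a log2 difference of 0.15 ± 0.27 (SE), and the empty vector libraries were above both at 53.1 and 53.3 CPM. FGFR4 differed by 0.52 ± 0.29 and FGFR2, below 4 CPM in all isoform libraries, by 0.39 ± 0.56 (SE). NUDT6, the gene antisense to FGF2, differed by -0.63 ± 0.73 (SE) with 1 to 7 counts in each isoform library. By edgeR and by DESeq2, none of 14 tested heparan sulfate enzymes and none of 21 tested nuclear partners and carriers of FGF2 passed (1 and 2 at an unadjusted p under 0.05), with median log2 fold changes of 0.15 and 0.06. None of 26 ERK feedback and early response genes passed edgeR's test (5 at an unadjusted p under 0.05), with a median of -0.19, and 1 passed DESeq2's. That gene, IER2, an early response gene with also the smallest edgeR p, stood at 231 and 204 CPM with 18 kDa and 124 and 129 CPM with 22.5 kDa FGF2 (log2 difference -0.79; edgeR adjusted p = 0.0542).

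**Figure D2:**
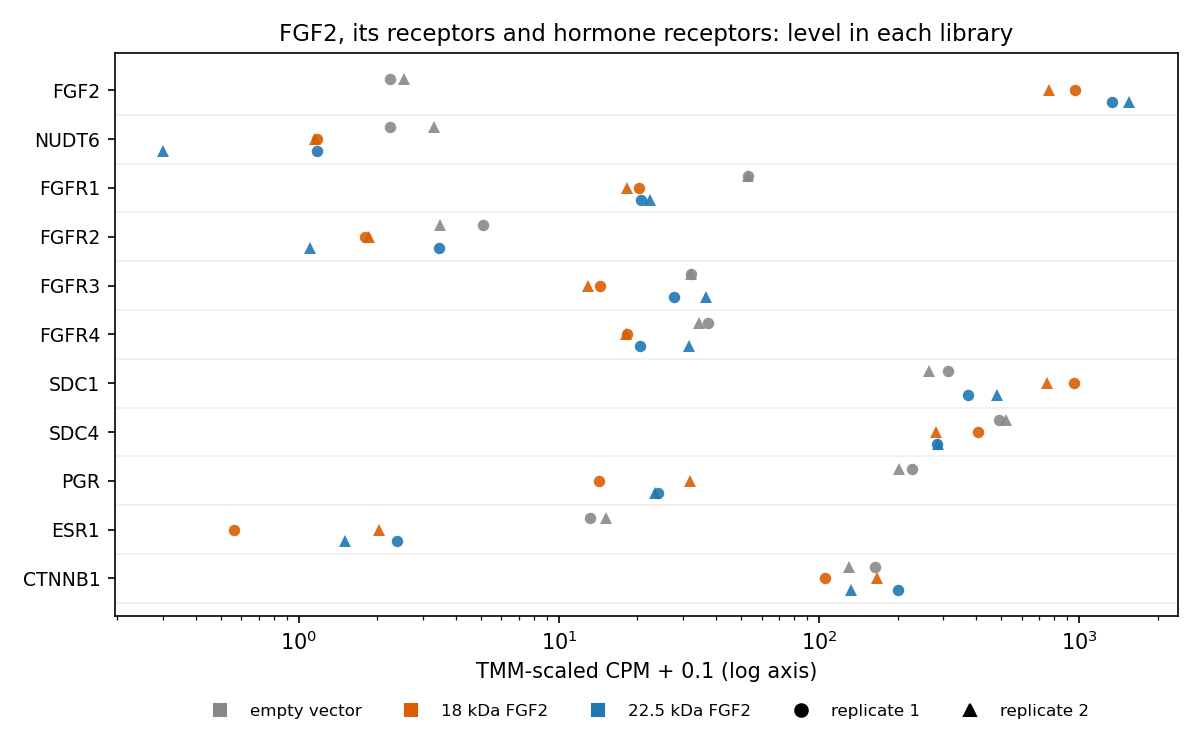
Levels of FGF2, its antisense gene, its receptors, syndecans and 3 further genes in each of 6 libraries, as scaled CPM + 0.1 on a log axis, with colours for genotype and shapes for replicate. FGF2 is at 767 CPM or more in the isoform libraries and at 2.15 and 2.44 CPM with the empty vector, and PGR and ESR1 are low with both isoforms.

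PGR, the progesterone receptor, was 14.1 and 31.6 CPM with 18 kDa, 24 and 23.3 CPM with 22.5 kDa FGF2 and 228 and 202 CPM with the empty vector. The isoform groups overlapped, and the log2 difference was 0.05 ± 0.31 (SE). ESR1, estrogen receptor alpha, was 0.460 and 1.93 CPM with 18 kDa, 2.29 and 1.4 CPM with 22.5 kDa FGF2 and 13.1 and 15 CPM with the empty vector, a log2 difference of 0.68 ± 0.61 (SE) between isoforms. These misses do not show that the levels are alike.

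Among 20 tested progestin and glucocorticoid responsive genes 3 rose and 0 fell, beside 1.13% and 0.45% over all tested genes, with a median log2 fold change of 0.08, and 1 of the 3 passed without any 1 library. S100P, a calcium-binding protein, was 12.1 and 7.38 CPM with 18 kDa, 60.9 and 70.8 CPM with 22.5 kDa FGF2 and 13.4 and 7.5 CPM with the empty vector, so only its 22.5 kDa libraries were high (log2 fold change 2.75; edgeR adjusted p = 1.09e-05). FKBP5, a chaperone partner of steroid receptors, was 33.0 and 43.2 CPM with 18 kDa, 82.9 and 69.2 CPM with 22.5 kDa FGF2 and 111 and 98.9 CPM with the empty vector (log2 fold change 1.00; edgeR adjusted p = 0.0182). ELF5, a transcription factor of alveolar differentiation, had a log2 fold change of 1.08 (edgeR adjusted p = 0.0241). FKBP5 and ELF5 missed the threshold without 18 kDa replicate 1 (adjusted p = 0.204 and 0.221), 22.5 kDa replicate 1 (0.256 and 0.484) or 22.5 kDa replicate 2 (0.108 and 0.101). In edgeR's test FKBP5 was also the 1 passing gene of 16 steroid receptor and pioneer factor genes and of 15 androgen-regulated and apocrine genes. DESeq2 also called PIP, a secreted apocrine protein, in the latter list. PIP was 5.99 and 23.0 CPM with 18 kDa and 1.99 and 4.41 CPM with 22.5 kDa FGF2, lower with the latter (log2 difference -2.20; edgeR adjusted p = 0.179). Among 24 estrogen-regulated genes, AGR2 rose and AREG fell, with a median of 0.10. AGR2, a disulfide isomerase of the secretory pathway, was 19.3 and 9.49 CPM with 18 kDa, 81.5 and 75.2 CPM with 22.5 kDa FGF2 and 36.8 and 20.6 CPM with the empty vector. Its log2 fold change was 2.43 ± 0.35 (SE; edgeR adjusted p = 0.00176), with 3.04 without 18 kDa replicate 1, and an adjusted p of 0.0564 without 22.5 kDa replicate 2.

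Of 21 tested Wnt ligands, receptors and secretion genes 2 rose and 0 fell, with a median of 0.00. WNT6, a secreted Wnt ligand, was 2.00 and 1.23 CPM with 18 kDa, 10.4 and 15.8 CPM with 22.5 kDa FGF2 and 0.894 and 3.19 CPM with the empty vector. FZD4, a Frizzled receptor of Wnt proteins, was 30.8 and 50.9 CPM with 18 kDa, 125 and 110 CPM with 22.5 kDa FGF2 and 51.5 and 50.3 CPM with the empty vector. Both were high in the 22.5 kDa libraries alone, with log2 fold changes of 2.99 ± 0.52 for WNT6 and 1.53 ± 0.24 for FZD4 (SE; edgeR adjusted p = 0.0018 and 0.000419). Without 22.5 kDa replicate 2 the adjusted p was 0.135 for WNT6 and 0.0564 for FZD4. None of 20 beta-catenin pathway genes and targets passed by edgeR or DESeq2 (2 at an unadjusted p under 0.05), with a median of 0.20. CTNNB1, beta-catenin itself, was 105 and 167 CPM with 18 kDa and 201 and 132 CPM with 22.5 kDa FGF2, which overlap (log2 difference 0.29 ± 0.26, SE). The member with the smallest p was TCF7L1, a repressor that binds beta-catenin, at 5.37 and 3.51 CPM with 18 kDa and 14.4 and 10.8 CPM with 22.5 kDa FGF2 (log2 difference 1.5; edgeR adjusted p = 0.0543).

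Of 21 Notch pathway genes, LFNG and DTX4 rose and 0 fell, while the list's median was -0.13. Of 12 EGF family ligands and receptors AREG alone passed, and of 22 TGF-beta and BMP pathway genes TGFB1 fell and TGFB3 rose. TGFB3, the ligand TGF-beta 3, was 20.7 and 17.2 CPM with 18 kDa and 41.4 and 39.1 CPM with 22.5 kDa FGF2 (log2 fold change 1.08; edgeR adjusted p = 0.0488). Its call was lost without each of the 6 libraries in turn, with adjusted p from 0.0603 without empty vector replicate 1 to 0.34 without 22.5 kDa replicate 1; the other values were 0.0682 (empty vector replicate 2), 0.0759 and 0.101 (18 kDa replicates 1 and 2) and 0.191 (22.5 kDa replicate 2). Of 14 insulin and IGF signalling genes 1 passed. IRS1, the adaptor of insulin and IGF receptors, had 3 and 0 counts with 18 kDa and 27 and 19 counts with 22.5 kDa FGF2, a ratio of 16.2 (95% interval 5.22 to 81.6, counting error only; edgeR adjusted p = 0.00235). Its adjusted p was 0.104 without 22.5 kDa replicate 1 and 0.108 without 22.5 kDa replicate 2, and the fitted log2 fold change of IRS1, 3.91, became 7.5 without 18 kDa replicate 1 and 2.995 without 18 kDa replicate 2. The empty vector libraries stood at 3.58 and 3.56 CPM beside the 22.5 kDa libraries at 4.12 and 3.81 CPM.

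Of 20 luminal lineage genes AGR2 and ELF5 rose and CD24, a surface glycoprotein, fell by 1.00 on the log2 scale (edgeR adjusted p = 0.0402; 0.249 without 22.5 kDa replicate 2), with a list median of -0.26. None of 10 keratin genes and 17 basal and hemidesmosome genes passed by edgeR or DESeq2 (3 and 2 at an unadjusted p under 0.05), with medians of -0.37 and -0.02. Of 27 adhesion and junction genes CLDN1, a tight junction claudin, fell. CLDN1 was 16.7 and 15.1 CPM with 18 kDa, 3.66 and 2.61 CPM with 22.5 kDa FGF2 and 5.90 and 3.56 CPM with the empty vector, so the 18 kDa libraries were the high ones (log2 fold change -2.32; edgeR adjusted p = 0.00235, and 0.0769 or 0.143 without 22.5 kDa replicate 1 or 2). Of 38 clustered protocadherins, adhesion proteins of chromosome 5 whose transcripts share 3' exons within a cluster, 0 passed by edgeR or DESeq2 (2 at an unadjusted p under 0.05), while 36 had a log2 difference below 0, with a median of -0.20. Their shared exons make the level of each one uncertain and their values not independent. None of 14 cancer-testis genes passed by edgeR or DESeq2, with 0 at an unadjusted p under 0.05 and a median of -0.20. Of 17 mesenchymal and matrix genes COL6A1, a collagen VI chain encoded on chromosome 21, rose from 4.60 and 6.15 to 16.6 and 21.4 CPM, with 17.0 and 33.4 CPM in the empty vector libraries (log2 fold change 1.82; edgeR adjusted p = 0.00951). That call ended without 18 kDa replicate 1 (adjusted p = 0.054), 22.5 kDa replicate 1 (0.095) or 22.5 kDa replicate 2 (0.195).

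Among 14 antigen presentation genes CD74 rose and HLA-B, a class I heavy chain, fell in edgeR's test. DESeq2 also called HLA-C, which did not pass edgeR's test. HLA-B was 1037 and 919 CPM with 18 kDa, 420 and 391 CPM with 22.5 kDa FGF2 and 1294 and 1293 CPM with the empty vector, so the 22.5 kDa libraries were the low ones (log2 fold change -1.27; edgeR adjusted p = 0.00228, and 0.0564 without 22.5 kDa replicate 2). HLA-B shares sequence with the other class I genes, which makes its level uncertain. Of 35 interferon response genes 1 fell, and of 19 chemokine, cytokine and receptor genes 0 passed by edgeR or DESeq2 (10 at an unadjusted p under 0.05). The lower one was SLFN11, a factor that blocks replication forks under stress, with 27 counts over the 18 kDa libraries and 2 over the 22.5 kDa libraries, a ratio of 12.8 (95% interval 3.21 to 111, counting error only; edgeR adjusted p = 0.0213). SLFN11 did not pass DESeq2's test (adjusted p = 0.0987), nor edgeR's without 18 kDa replicate 2 (adjusted p = 0.0884), 22.5 kDa replicate 1 (0.357) or 22.5 kDa replicate 2 (0.202).

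None of 42 cell cycle genes, 23 apoptosis regulators, 15 histone genes, 18 heat shock genes and 30 hypoxia and glycolysis genes passed by edgeR or DESeq2 (3, 3, 2, 4 and 4 at an unadjusted p under 0.05), with medians from -0.11 for histone genes to 0.22 for heat shock genes. None of 4 tested metallothioneins, metal-binding stress proteins, passed by edgeR or DESeq2 (2 at an unadjusted p under 0.05), with a median of -0.51. Of 34 unfolded protein response and amino acid synthesis genes ASS1 alone passed, with a list median of 0.27, and of 34 nucleolar and ribosome assembly genes RRP1B alone did. RRP1B is a nucleolar partner of protein phosphatase 1 encoded on chromosome 21. It was 35.9 and 38.1 CPM with 18 kDa and 80.0 and 74.2 CPM with 22.5 kDa FGF2 (log2 fold change 1.06, edgeR adjusted p = 0.0154). The call ended without 18 kDa replicate 1 (adjusted p = 0.0751), 22.5 kDa replicate 1 (0.209) or 22.5 kDa replicate 2 (0.136). Lipid synthesis was covered by 31 tested genes of the cholesterol and fatty acid routes, of which 1 passed. SREBF1, which encodes the transcription factor SREBP-1, was that gene and fell by 0.88 on the log2 scale (edgeR adjusted p = 0.0278). SREBF1 kept its call without 18 kDa replicate 2 alone among the libraries, with adjusted p of 0.0528 and 0.0556 without empty vector replicates 1 and 2, 0.241 without 18 kDa replicate 1, and 0.2 and 0.123 without 22.5 kDa replicates 1 and 2.

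**Figure D3:**
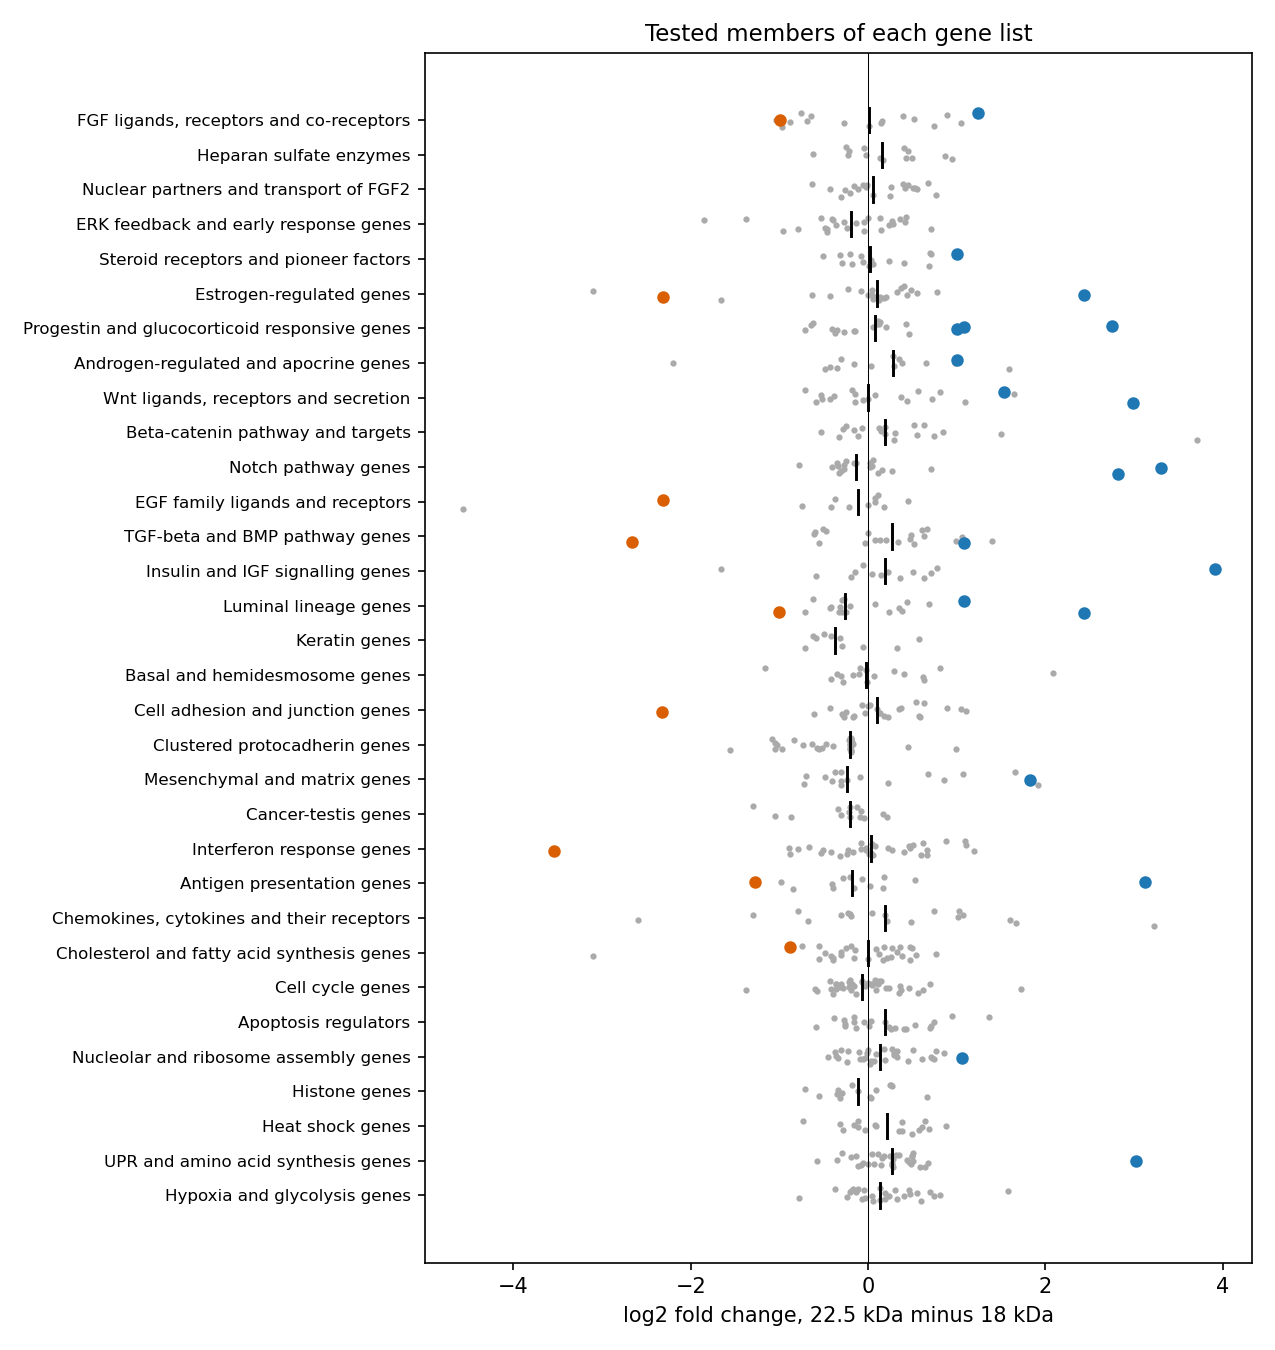
Log2 fold change (22.5 kDa minus 18 kDa) of the tested members of each gene list, with blue for members that rose, orange for members that fell, grey for the rest, and a black bar at the list's median. The medians of the lists drawn lie between -0.37 for keratin genes and 0.28 for androgen-regulated genes, and none of them has more than 3 coloured points.

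Some genes had counts in 1 isoform group alone. Of the tested genes, 18 had counts with 22.5 kDa FGF2 but none in either 18 kDa library. Of them 8 passed, beside 1.13% higher over all tested genes. The reverse held for 6 genes, and 0 of those passed by edgeR or DESeq2 (2 at an unadjusted p under 0.05). Beside ZDHHC4 the passing genes were low. Of all changed genes, 17 reached the filter on low counts only through the 22.5 kDa libraries and 4 only through the 18 kDa libraries. BRINP3, NEFL, CLEC3A, PCDH9 and GLT8D2 are among the 17, so they had to differ to be tested and their adjusted p is no support. BRINP3, NEFL, CLEC3A and PCDH9 are also among the 8, so that count is no support either. BRINP3, a neural gene linked to the retinoic acid response, had 22 and 16 counts with 22.5 kDa FGF2 and was at least 6.65-fold higher (edgeR adjusted p = 0.000322; 0.0564 without 22.5 kDa replicate 2). NEFL, the neurofilament light chain, had 17 and 14 counts with 22.5 kDa FGF2 and 0 with the empty vector too, at least 5.47-fold higher (edgeR adjusted p = 0.00149; 0.135 without 22.5 kDa replicate 2, not tested without 22.5 kDa replicate 1, and 0.061 by DESeq2). MBP, myelin basic protein, had 12 and 14 counts with 22.5 kDa FGF2, at least 4.70-fold higher (edgeR adjusted p = 0.00212; 0.124 without 22.5 kDa replicate 2), and 20 and 14 counts with the empty vector.

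Changed genes were placed in the gene order of the RefSeq table, and the median log2 fold change was taken over windows of 25 neighbouring tested genes. In 8 runs of at least 20 genes the window median stayed above 0.5, and in none did it stay below -0.5. These limits were set after the values were seen, and the runs are a description without a test. They held 502 of the 13073 placed genes (3.84%) and 39 of the 148 higher genes (26.4%), leaving 109 higher genes elsewhere. The longest run, on chromosome 7 from FSCN1 to AQP1, had 86 tested genes, of which 94.2% were higher with 22.5 kDa FGF2 with a median of 0.76, and 12 passed. Those 12 include FAM220A, ZDHHC4, ZNF853, AGR2 and GPNMB, all described above. Over this run the median was -0.55 for 18 kDa and 0.13 for 22.5 kDa FGF2 against the empty vector, on log2(CPM + 0.5).

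On chromosome 2, runs of 75 genes from HIBCH to ABCA12 and 66 genes from GMPPA to UBE2F had medians of 0.80 and 0.70, with 6 and 5 genes passing. The first holds IDH1, the cytosolic isocitrate dehydrogenase, and the second holds IRS1. Against the empty vector these runs stood at -0.21 and -0.06 with 18 kDa and at 0.56 and 0.53 with 22.5 kDa FGF2, so it was the 22.5 kDa libraries that lay farther from the empty vector. On chromosome X the 60 genes from PUDP to DYNLT3 had a median of 0.77 with 5 passing, among them TMSB4X, the actin-binding thymosin beta 4. There both isoforms stood above the empty vector, 18 kDa by 0.67 and 22.5 kDa FGF2 by 1.42. Chromosome 21 was higher nearly throughout, with 94.0% of 133 tested genes above 0, a median of 0.64 and 13 higher and 0 lower genes (9.77%). Against the empty vector its median was -0.055 with 18 kDa and 0.52 with 22.5 kDa FGF2. Over all tested genes these medians were -0.053 and 0.0003.

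The runs did not weigh equally on the libraries. In the 4 pairs of 1 library from each isoform the median ranged from 0.53 to 0.60 over chromosome 21 and from 0.61 to 0.67 over the second chromosome 2 run, but from 0.36 to 0.93 over the chromosome 7 run and from 0.29 to 1.14 over the first chromosome 2 run. All were above 0. Within 3 runs on chromosome 1, of 58, 47 and 26 genes, it ranged from 0.10 to 1.015 and 3 genes passed. DNA copy number was not measured in these samples, and its part in the result was not tested. Of tested genes next to each other in the order, 8 pairs both passed, beside 1.58% of all tested genes passing singly. In all 8 both members moved in the same direction, while 71.5% of all changed genes were higher. No share over all neighbouring pairs was computed, so the count is a description. GLT8D2 and S100A14, members of these pairs, reached the filter on low counts only through the 22.5 kDa libraries. Their pairs are therefore no support. HCFC2 with GLT8D2 and WT1 with WT1-AS are such pairs, as are TIAM1 with SOD1 on chromosome 21. CCDC152 with SELENOP and ZYX with EPHA1 are pairs that overlap on opposite strands. How strand was counted is not given, so reads in the stretch where they overlap cannot be told apart.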

How the data were processed

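The 6 libraries were made from mRNA with a directional kit and sequenced as read pairs, per the labels' protocols. The authors deposited raw counts per gene, keyed by Entrez identifier. The submitters' processing notes name edgeR and hg19, while no source used here gives the aligner, the counter or how strand was handled. Of 23459 genes, 5136 had no read and 23308 matched a symbol in the RefSeq table (GRCh38.p14, used for names and gene order, with promoter sequence from RefSeq). GENCODE 29 gave GC content and strands.

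Counts were tested with edgeR 4.0.16 in R 4.3.3 (TMM scaling, filterByExpr by group, robust glmQLFit, glmQLFTest, two-sided, Benjamini-Hochberg over all 13124 tested genes), with 3 groups of 2 in 1 model and 3 residual degrees of freedom. An exact permutation test of 2 against 2 libraries cannot go below 0.333. CPM values are TMM-scaled, and gene-wise levels are not corrected for length. Replicates differed by more than sampling noise (chi-square per degree of freedom 6.20 to 14.3). Alternatives were other scalings, filters and tests (DESeq2 1.42.0), fewer libraries and a replicate block. On simulated data of 12924 genes, 38 of 95 genes with a set 2-fold change were called, as were 86 of 100 with a 4-fold change, with 7 false calls. The simulated counts were drawn independently for each library, with a spread set by mean level. They lacked deviations shared between libraries, so these shares need not hold for the real data. The genes named were the 15 highest and 15 lowest passing genes above a mean log2 CPM of 1, the 10 most abundant, up to 10 with no count in 1 isoform group, a fixed set around FGF2 and hormone receptors, and up to 4 passing genes per list or, where none passed, the one with the smallest p. Groups could not overlap in the highest, lowest and most abundant genes. Members and lists were chosen with earlier results of these data known.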

Additional observations from a re-analysis of the deposited data

How the results depend on the processing

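The count of 207 changed genes (148 higher, 59 lower) ranged from 37 to 733 when 1 library was left out (26 to 574 higher, 11 to 159 lower), and each of the 207 genes kept its direction in every setting in which it was tested. With no filter on low counts it was 445 (335 and 110), against a fold of 1.5 it was 78 (56 and 22), and with the replicate block it was 337 (247 and 90), where all 207 genes passed. The replicate numbers did not pair the samples alike in all groups. Deviations of same-numbered libraries correlated by -0.41 between the isoforms, -0.27 between 18 kDa and empty vector and 0.39 between 22.5 kDa and empty vector. The 18 kDa numbers thus ran opposite to those of the other groups. The replicate block does not follow this pattern, and its cause was not tested. The following were chosen after seeing the data. Crossed numbers as block, with the 22.5 kDa numbers swapped, gave 280. That block still set the empty vector libraries against both isoform groups. With the GC trend of each library removed the count was 318 (228 and 90), without both replicate 1 isoform libraries 354 (240 and 114), and without both replicate 2 isoform libraries 2612 (1472 and 1140), where 56.4% were higher against 71.5%. The fits without both replicate 1 or both replicate 2 isoform libraries compared 1 library with 1, so their spread came from the empty vector libraries alone. The empty vector replicates were the closest, with a median absolute log2 difference of 0.22 against 0.32 for 18 kDa and 0.35 for 22.5 kDa FGF2. The counts of these fits therefore do not measure replicated differences between isoforms. DESeq2's Wald test gave 212 genes, 167 of them among the 207. The log2 differences that turned sign belong to genes that did not pass: ESR1 (-0.041 to 1.93 when 1 library was left out, lowest where 18 kDa replicate 1 was absent, and -0.45 with both replicate 1 libraries removed), PGR (-0.42 to 0.68, and -0.44, in the same settings) and FGFR1 (-0.021 without both replicate 2 libraries). In each case the cause was not tested. At this depth 3 counts correspond to 0.458 to 0.601 CPM, below which a difference was not detectable.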

Other observations

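S100 genes, a family of small calcium-binding proteins, were counted together after their values were seen, so the count is a description. Of 11 tested, 5 rose and 0 fell, beside 1.13% and 0.45% over all tested genes, with a median log2 fold change of 0.96. Beside S100P, S100A16 was 193 and 157 CPM with 18 kDa and 408 and 543 CPM with 22.5 kDa FGF2 (edgeR adjusted p = 0.000389), and it passed without any 1 library. S100A1 was 28.2 and 35 CPM with 18 kDa, 74.2 and 123 CPM with 22.5 kDa FGF2 and 11.6 and 12.6 CPM with the empty vector (edgeR adjusted p = 0.000455; 0.123 without 22.5 kDa replicate 2). S100A14 and S100A6 also rose, by log2 fold changes of 2.01 and 0.96 (edgeR adjusted p = 0.0215 and 0.034). S100A14 missed the threshold without 18 kDa replicate 1 (0.132), 22.5 kDa replicate 1 (0.197) or 22.5 kDa replicate 2 (0.164), and S100A6 without 18 kDa replicate 1 (0.192) or 22.5 kDa replicate 2 (0.261). S100A14 reached the filter on low counts only through the 22.5 kDa libraries, so its adjusted p is no support. S100A6, S100A16, S100A14 and S100A1 lie in 1 cluster on chromosome 1, with at most 1 tested gene between neighbours, so they are not independent.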
